A study of Homo sapiens with 6 samples.

Results

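The RAB GTPases of human KGN cells were described from the deposited expression table of 6 RNA-seq libraries, 3 from cells overexpressing SOX3 (OE-SOX3) and 3 from control cells (OE-NC). Members were all genes whose symbol is RAB followed by a number and at most a single letter from A to D. This rule found 59 of the 16626 genes in the table and used no measured value. KGN is an established steroidogenic line from an ovarian granulosa cell tumour, and SOX3 is a transcription factor of the SOX family. The labels give the genotype of OE-NC cells as WT and that of OE-SOX3 cells as overexpression of SOX3. The sources used here name neither the vector nor the promoter that drives SOX3, nor whether either population is a clone. Since no label ties the 3 libraries of each kind to separate cultures, p-values here rest on the spread among libraries alone, and that spread may be technical.

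RAB proteins are small GTPases that give each membrane compartment its identity. In the GTP-bound form a RAB sits on a vesicle or organelle and recruits effectors such as tethers, motors and kinases, and in the GDP-bound form it is extracted and kept soluble by GDP dissociation inhibitors. Guanine nucleotide exchange factors (GEFs) switch a RAB on and GTPase-activating proteins (GAPs) switch it off. Granulosa cells secrete hormones, growth factors and matrix, take up lipoproteins and recycle receptors, and each of these routes runs through a different set of RABs. Here the members were sorted by their best-known compartment into secretory (endoplasmic reticulum, Golgi and exocytosis), endosomal (early and recycling endosomes), lysosomal (late endosomes, lysosomes, lysosome-related organelles and autophagy) and other RABs. Many RABs act at more than a single compartment, so the sorting is a convention.

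Values are FPKM, reads per kilobase of gene and relative to the total reads of the library, from 18039929 to 20335307 reads per library. SOX3 itself had 579, 547 and 540 reads in OE-SOX3 libraries 1, 2 and 3, against 3, 6 and 1 in the OE-NC libraries. OE-NC 1 stood apart: its log2 values correlated at 0.986 with OE-NC 2 and at 0.986 with OE-NC 3, against 0.998 between those, and longer genes tended to read lower in it than in those (Spearman correlation with length across genes -0.508). Results that change without it are given both ways, except single lists of genes that act on RABs and read ratios of untested members, which were not taken without it. Libraries 2 and 3 differed by a chi-square of 2.09 per degree of freedom in OE-SOX3 and 1.76 in OE-NC, where counting error alone gives about 1. Of 12 granulosa markers, 9 reached 1 FPKM in a library, including FOXL2, NR5A1 and STAR. The 11 analysed summed to 163 to 169 FPKM in OE-SOX3 and 71.6 to 73.3 FPKM in OE-NC, a difference set mainly by STAR. STAR alone had 116, 116 and 122 FPKM in OE-SOX3, against 33.6, 33.7 and 33.3 FPKM in OE-NC. FOXL2, INHA, GATA4 and KITLG also rose in the test given below, while NR5A1, AMH and CYP11A1 did not pass. AMHR2 was at 0 in OE-SOX3 and from 0.162 to 0.355 FPKM in OE-NC. CYP19A1, which encodes aromatase, reached at most 1.03 FPKM, HSD3B2 was at or near 0 and FSHR was not analysed here. None of the 4 leukocyte markers reached 1 FPKM, nor did the epithelial and theca markers analysed (1 of 3 epithelial, 2 of 3 theca). Of the 3 endothelial markers PECAM1 did, at 2.37 to 2.55 FPKM in OE-SOX3 and 3.35 to 3.82 FPKM in OE-NC, while CDH5 stayed at or under 0.0129 FPKM. Whether these marker differences have a part in the RAB results was not tested. In RNA from whole cultures, fewer expressing cells and less RNA per cell cannot be told apart.

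RAB transcripts moved in both directions, with more members higher than lower in OE-SOX3. Of the 59 members, 44 averaged 1 FPKM or more in OE-SOX3, in OE-NC or in both and were tested. Their means over the 6 libraries ran from 1.08 FPKM for RAB40B to 136 FPKM for RAB7A. In a limma fit across all 11131 tested genes on the log2(FPKM + 1) scale, p-values adjusted by Benjamini-Hochberg and called under 0.05, 23 members rose, 12 fell and 9 did not pass. Called members were 79.5% of those tested, beside 69.1% of all tested genes. Higher members were 52.3% (all tested genes 32.9%) and lower members 27.3% (all tested genes 36.1%). In 37 of the 44 the OE-SOX3 and OE-NC libraries did not overlap (all tested genes 76%). The median log2 fold change of the tested members was 0.24, and that of all tested genes was -0.03. The split depends on the scaling of the libraries. Bringing every library to the same sum of FPKM moved the median of all tested genes to 0.09. In that run 28 members were higher and 6 lower (all tested genes 4357 higher and 3210 lower). Under quantile normalization 24 members were higher and 7 lower (all tested genes 3875 higher and 3837 lower). Relative to the median of all tested genes, the member median was 0.27 as deposited, 0.27 at equal sums and 0.28 under quantile normalization. Without OE-NC 1, 30 members were higher and 12 lower. Calls then rose across all tested genes as well, from 7686 to 9076 (4274 higher and 4802 lower).

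**Figure D1:**
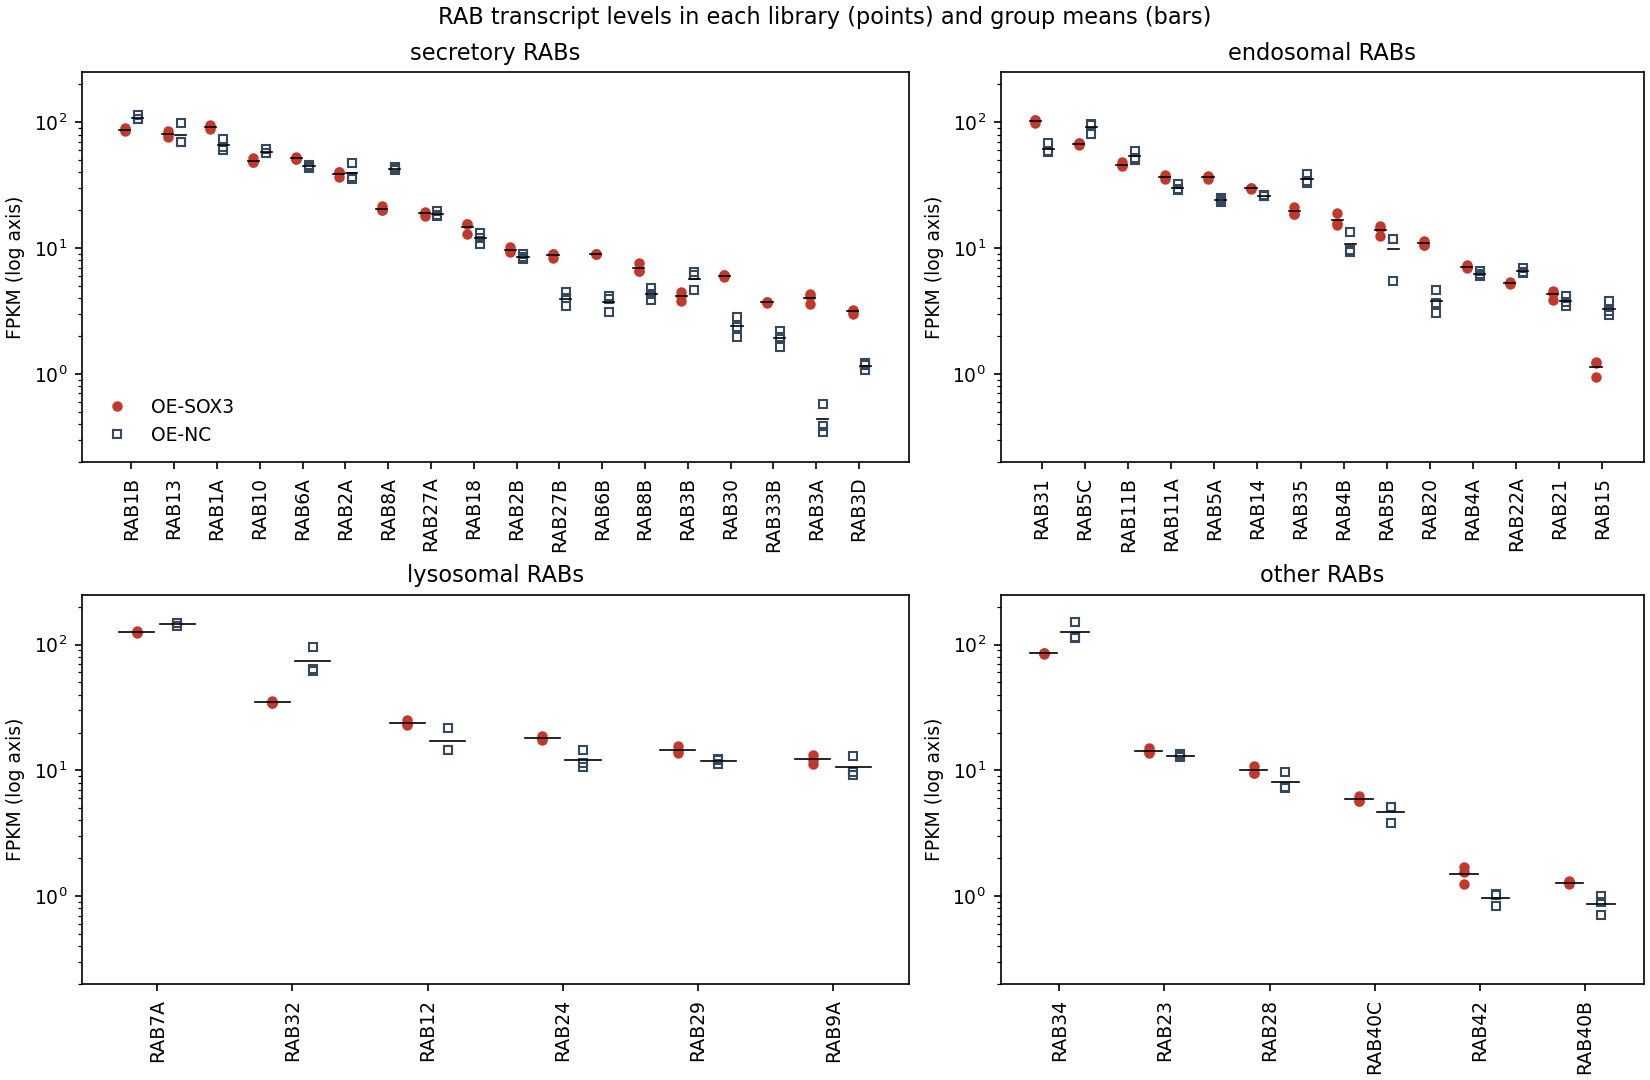
Levels of the 44 tested RAB genes in every library, in FPKM on a log axis, by class and in order of mean level; filled circles are OE-SOX3 libraries, open squares OE-NC libraries and bars group means. RAB3A shows the widest gap between the groups, from 3.61 to 4.34 FPKM in OE-SOX3 against 0.348 to 0.574 FPKM in OE-NC.

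Each of the 3 compartment classes held members that rose and members that fell. Among 18 tested secretory RABs, 10 rose and 4 fell (77.8% called, beside 69.1% of all tested genes), with a median log2 fold change of 0.24. Among 14 tested endosomal RABs, 7 rose and 5 fell (85.7% called), with a median of 0.18. Of 6 tested lysosomal RABs, 3 rose and 2 fell (83.3% called), with a median of 0.24. All tested genes also moved in both directions, 32.9% higher and 36.1% lower, with a median of -0.03. Summed FPKM of the secretory RABs overlapped between the groups, at 524, 510 and 503.7 in OE-SOX3, against 546.7, 484.5 and 485.8 in OE-NC. As a share of the summed FPKM of all genes in a library, which differs between the groups, the class totals went in different directions. Secretory RABs together made up 0.156%, 0.155% and 0.152% of the summed FPKM of the OE-SOX3 libraries, against 0.138%, 0.137% and 0.137% of the OE-NC libraries. Endosomal RABs made up 0.122%, 0.12% and 0.118% in OE-SOX3, against 0.0948%, 0.103% and 0.102% in OE-NC. The lysosomal total ran the other way, at 0.0692%, 0.0699% and 0.0691% in OE-SOX3, against 0.0751%, 0.0725% and 0.0741% in OE-NC. Summed lysosomal FPKM was 231.6, 230.4 and 229.3 in OE-SOX3, against 296.7, 257.3 and 261.8 in OE-NC. Within it RAB32 alone had 35.8, 34.5 and 34.6 FPKM in OE-SOX3, against 95.4, 61.6 and 64.2 FPKM in OE-NC. The share without RAB32 was not taken, so a lower share of the class apart from RAB32 is not shown. For all 3 classes the OE-SOX3 and OE-NC libraries did not overlap in this share, which is free of the scaling of a library but is set mainly by the most abundant members. These sums were not tested.

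**Figure D2:**
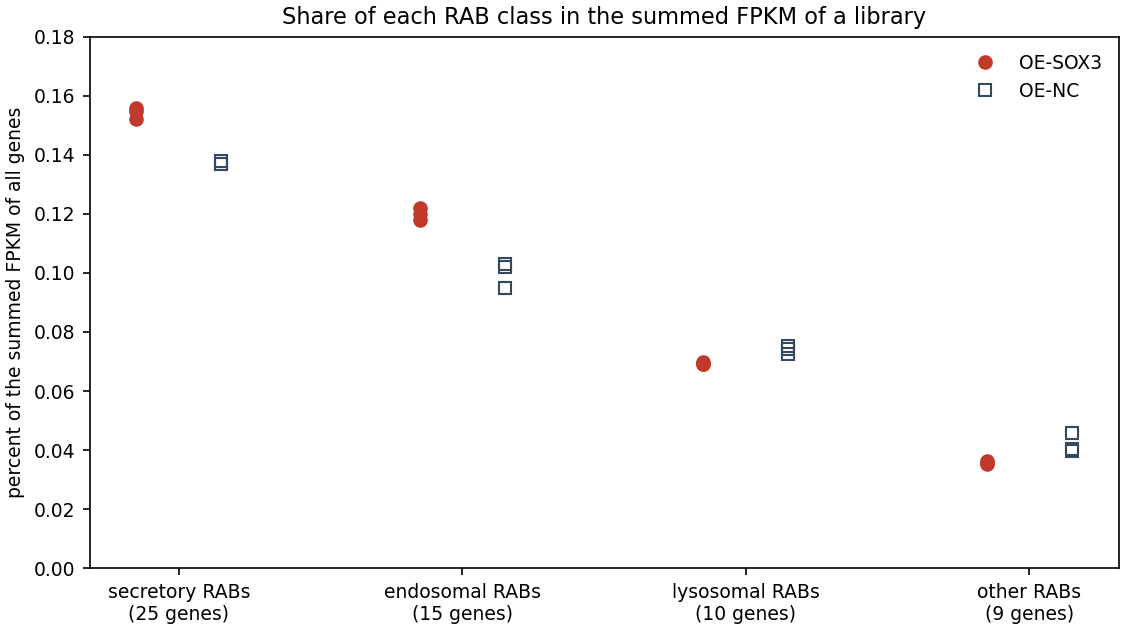
Share of each RAB class in the summed FPKM of all genes, in percent, for each OE-SOX3 library (filled circles) and OE-NC library (open squares). Secretory and endosomal shares lie higher in OE-SOX3, and lysosomal and other shares lie lower.

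Among the RABs of regulated exocytosis, RAB3A had the largest rise of any member. This RAB, best known for tethering synaptic vesicles and hormone granules before release, stood at 4.13, 3.61 and 4.34 FPKM in OE-SOX3, against 0.348, 0.385 and 0.574 FPKM in OE-NC (378 against 42 recovered reads in all). The level was 9.25-fold higher in the means, with a log2 fold change of 1.81 and an SE of 0.09 (limma adjusted p = 4.67e-06). The gene lies on chromosome 19 (18196784 to 18204074, minus strand, GRCh38). RAB3D, which acts on secretory granules, measured 3.19, 3.24 and 3.02 FPKM in OE-SOX3, against 1.21, 1.17 and 1.08 FPKM in OE-NC, and rose by 0.95 on the log2 scale (limma adjusted p = 1.15e-05). The third expressed member of that subfamily, RAB3B, went the other way, with 3.82, 4.52 and 4.197 FPKM in OE-SOX3, against 4.61, 6.08 and 6.44 FPKM in OE-NC. It fell by 0.37 on the log2 scale (limma adjusted p = 0.0261), a call that was lost without OE-SOX3 1 (adjusted p = 0.0909), OE-SOX3 3 (0.0704), OE-NC 2 (0.0758) or OE-NC 3 (0.0756) and at equal sums (0.172). RAB27B docks secretory granules and multivesicular bodies at the plasma membrane. Its levels were 8.94, 9.03 and 8.29 FPKM in OE-SOX3, against 3.46, 3.98 and 4.48 FPKM in OE-NC (log2 fold change 0.98, SE 0.09, limma adjusted p = 6.95e-05). Its paralogue RAB27A, at 18.9 ± 0.692 FPKM in OE-SOX3 and 18.8 ± 0.890 FPKM in OE-NC (SD, n = 3 each), did not pass (log2 fold change 0.01, SE 0.06, limma adjusted p = 0.932).

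Constitutive export to the cell surface held the largest fall among the secretory RABs. RAB8A, which carries vesicles from the trans-Golgi network to the plasma membrane and the primary cilium, had 20.05, 20.08 and 21.8 FPKM in OE-SOX3, against 41.95, 42.4 and 44.3 FPKM in OE-NC. It fell by 1.02 on the log2 scale (SE 0.06, limma adjusted p = 1.27e-05). The gene is on the plus strand of chromosome 19 (GRCh38, 16111629 to 16134234), and 37.8% of its exon bases lie inside an opposite-strand gene, AC008894.2, whose reads cannot be told apart if strand was not used in counting. RAB8B, the second gene of the pair, rose, with 6.61, 7.55 and 6.53 FPKM in OE-SOX3, against 3.90, 4.32 and 4.85 FPKM in OE-NC (log2 fold change 0.56, limma adjusted p = 0.00108). RAB10, a relative that moves glucose transporter vesicles, fell by 0.24 on the log2 scale to a mean of 49.5 FPKM in OE-SOX3, against 58.6 FPKM in OE-NC (limma adjusted p = 0.0134). That call was lost without OE-SOX3 1 (adjusted p = 0.0618) or OE-SOX3 3 (0.056) and at equal sums (0.185), and the sign turned under quantile normalization (0.02). RAB13, a RAB of tight junctions, averaged 81.2 ± 4.14 FPKM in OE-SOX3 and 79.3 ± 16.4 FPKM in OE-NC (SD, n = 3 each) and did not pass. OE-NC 1 alone, at 98.2 FPKM, exceeded the OE-SOX3 libraries, and without it RAB13 was called higher by 0.21 on the log2 scale (limma adjusted p = 0.00156).

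RAB6A, RAB6B, RAB30 and RAB33B, which work at the Golgi, rose. RAB6B, the neuronally enriched form of the RAB that directs traffic within and from the Golgi, measured 8.92, 8.92 and 8.93 FPKM in OE-SOX3, against 3.13, 3.93 and 4.15 FPKM in OE-NC (log2 fold change 1.07, SE 0.09, limma adjusted p = 5.19e-05). It lies on chromosome 3 (133824239 to 133895836, minus strand, GRCh38). The widely expressed RAB6A rose less, by 0.21 on the log2 scale, to 52.2 FPKM in OE-SOX3, against 44.9 FPKM in OE-NC (limma adjusted p = 0.0133; 0.0627 without OE-SOX3 1 and 0.0564 without OE-NC 2). RAB30, a Golgi RAB, had 5.89, 6.08 and 6.14 FPKM in OE-SOX3, against 1.96, 2.38 and 2.84 FPKM in OE-NC, a log2 fold change of 1.06 (SE 0.10, limma adjusted p = 7.7e-05). RAB33B links the Golgi to autophagosome formation through ATG16L1. Its levels of 3.70, 3.75 and 3.66 FPKM in OE-SOX3 stood above the 1.65, 2.20 and 1.98 FPKM in OE-NC (log2 fold change 0.68, limma adjusted p = 0.000232).

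Between the endoplasmic reticulum and the Golgi the 2 forms of RAB1 moved in opposite directions. RAB1A, which tethers vesicles that leave the endoplasmic reticulum, reached 95.6, 91.3 and 87.7 FPKM in OE-SOX3, against 74.3, 64.2 and 60.6 FPKM in OE-NC (log2 fold change 0.46, limma adjusted p = 0.00266). RAB1B, which acts at the same step, had 89.5, 84.6 and 86.7 FPKM in OE-SOX3, against 114.8, 105.6 and 107.0 FPKM in OE-NC. It fell by 0.32 on the log2 scale (limma adjusted p = 0.00289, but 0.248 under quantile normalization), and 42.6% of its exon bases lie inside other genes. RAB2A, which works in retrieval from the intermediate compartment, and its relative RAB2B did not pass: RAB2A averaged 39.0 FPKM in OE-SOX3 and 39.8 FPKM in OE-NC, and RAB2B 9.66 FPKM in OE-SOX3 and 8.55 FPKM in OE-NC. Without OE-NC 1, RAB2B was called higher (log2 fold change 0.19, limma adjusted p = 0.0104). RAB18, a RAB of the endoplasmic reticulum and lipid droplets, rose by 0.27 on the log2 scale to 14.7 FPKM in OE-SOX3, against 12.0 FPKM in OE-NC (limma adjusted p = 0.043). Its groups overlapped, and the call was lost without OE-SOX3 1 (adjusted p = 0.136), OE-SOX3 2 (0.143), OE-NC 2 (0.13) or OE-NC 3 (0.0822) and with length trends removed (0.0815).

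**Figure D3:**
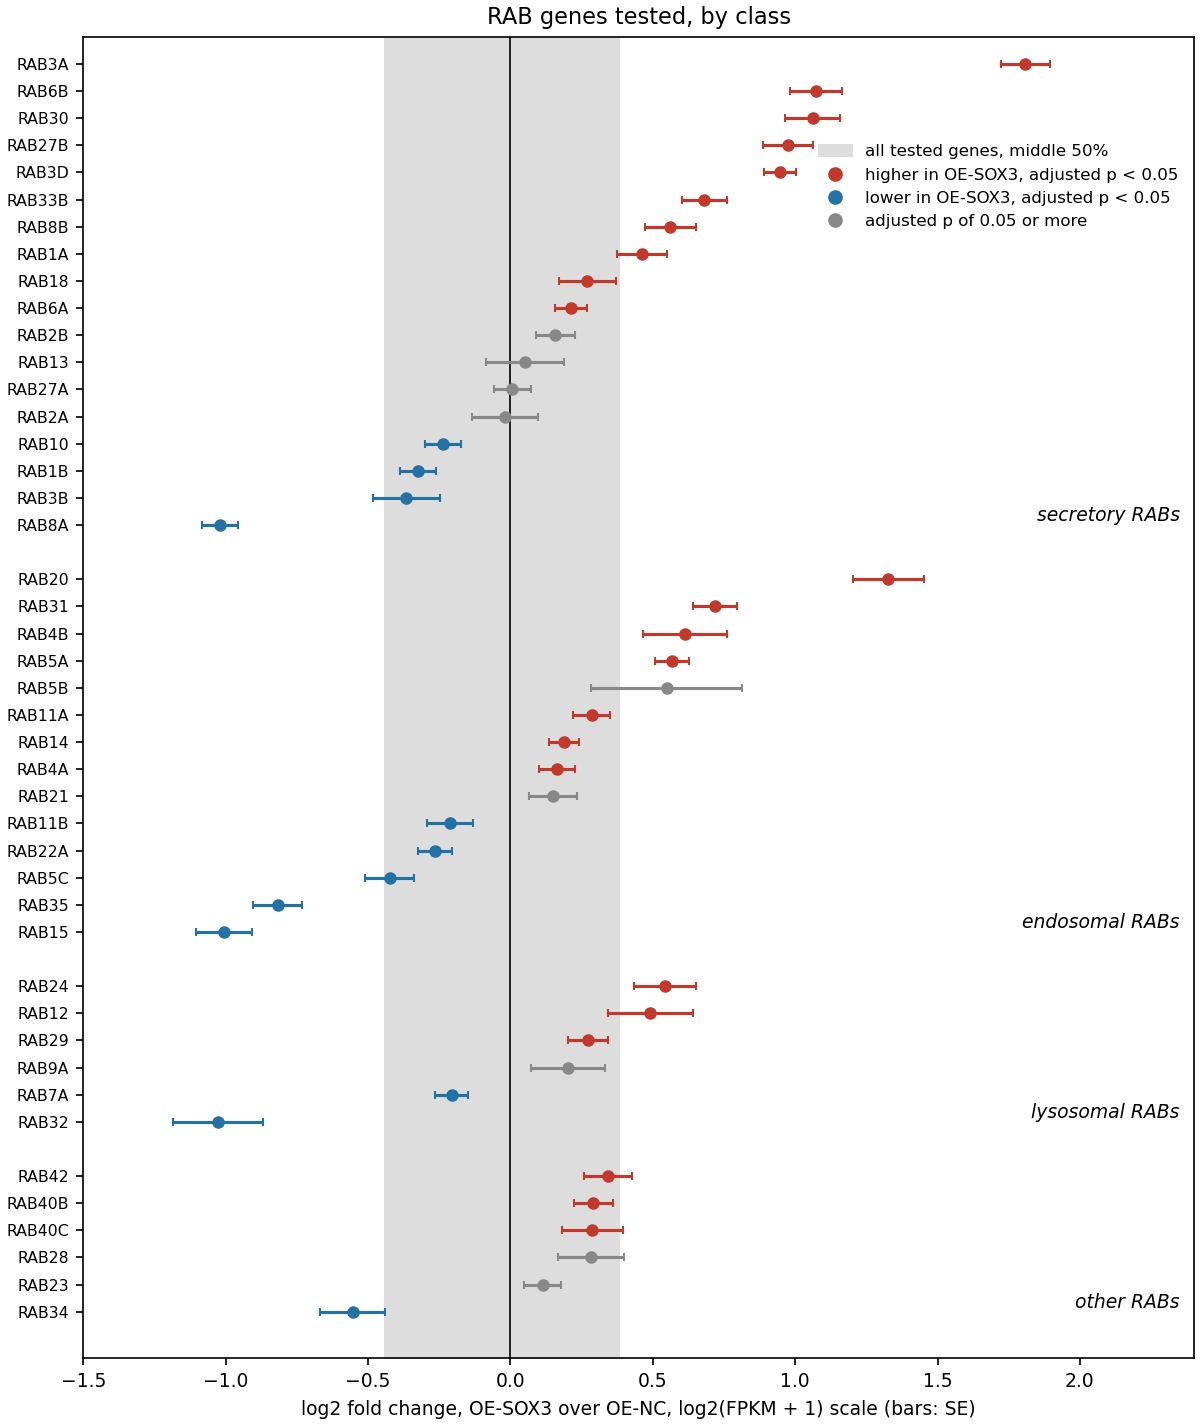
Log2 fold change of each tested RAB gene, OE-SOX3 over OE-NC on the log2(FPKM + 1) scale, with its SE, by class; red marks members called higher, blue members called lower and grey members that did not pass, and the grey band is the middle 50% of all tested genes (-0.44 to 0.38). The 4 members at or beyond a log2 fold change of 1 are RAB3A, RAB6B, RAB30 and RAB20, and the 3 at or beyond -1 are RAB8A, RAB15 and RAB32.

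Called changes of at least 2-fold on this scale were found for 4 members that rose (all tested genes 5.53%) and 3 that fell (all tested genes 6.58%). The number that rose depends on the pseudocount: with 0.1 in place of 1, RAB3D (log2 fold change 1.38) and RAB27B (1.13) also passed 2-fold, as they did under limma-voom on recovered reads (1.45 for RAB3D and 1.15 for RAB27B). Among the 7 members past 2-fold with a pseudocount of 1, RefSeq promoter sequence (GRCh38.p14) was at hand for RAB3A, RAB6B, RAB30, RAB8A and RAB32, and RAB15 and RAB20 had none. No base of the RAB8A window lay upstream of every annotated RAB8A exon. For the other 4 the bases upstream of every annotated exon of the gene are shown 5′ to 3′ on the strand of the gene, because these members passed 2-fold with a pseudocount of 1 under overexpression of a SOX factor. Capitals mark ACAAT or its reverse complement ATTGT, a short form of the SOX binding core.
RAB3A (chr19:18204075-18204292, minus strand): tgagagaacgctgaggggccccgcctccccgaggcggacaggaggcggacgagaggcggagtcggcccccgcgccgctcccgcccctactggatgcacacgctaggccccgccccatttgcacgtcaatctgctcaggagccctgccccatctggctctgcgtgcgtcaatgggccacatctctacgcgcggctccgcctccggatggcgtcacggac
RAB6B (chr3:133895883-133896132, minus strand): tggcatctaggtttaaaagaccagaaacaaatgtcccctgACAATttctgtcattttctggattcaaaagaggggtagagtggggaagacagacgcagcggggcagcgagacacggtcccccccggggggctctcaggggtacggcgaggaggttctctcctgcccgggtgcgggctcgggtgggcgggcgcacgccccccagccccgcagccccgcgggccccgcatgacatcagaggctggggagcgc
RAB30 (chr11:83071924-83072147, minus strand): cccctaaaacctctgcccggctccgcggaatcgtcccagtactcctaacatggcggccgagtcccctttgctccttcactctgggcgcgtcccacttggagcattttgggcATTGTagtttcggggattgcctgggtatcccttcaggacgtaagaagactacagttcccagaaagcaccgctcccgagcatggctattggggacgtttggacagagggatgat
RAB32 (chr6:146543583-146543692, plus strand): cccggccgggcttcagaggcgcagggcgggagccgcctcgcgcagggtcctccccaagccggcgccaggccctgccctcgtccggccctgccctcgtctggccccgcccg

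RAB6B held the match 210 bases and RAB30 139 bases before the RefSeq start. Over the 250 bases upstream of the start, ACAAT on either strand was found in 10 of 46 RAB promoters (21.7%), beside 14.1% of 9119 promoters of tested genes and 25.2% of all 27305 promoters. The 46 include members that were not tested, of which RAB40A, RAB6C and RAB6D held ACAAT. Each motif share of the 46 is therefore set beside tested genes only in part like it. Other motifs were searched on both strands as well. ACAAAG was found in 2 of 46 (4.35%, beside 8.61% of tested genes), and the E-box CACGTG in 5 of 46 (10.9%, beside 8.99%). GGGCGG, a GC box, was in 37 of 46 RAB promoters (80.4%), beside 68.1% of tested genes. Among the RABs that rose, ACAAT was in 4 of 19 promoters, among those that fell in 2 of 11 and among those that did not pass in 1 of 8. A match is a run of letters and says nothing of binding.

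Early and recycling endosomes held the second largest rise. RAB20, a RAB of early endosomes and phagosomes that hypoxia is known to induce, had 11.5, 10.6 and 10.6 FPKM in OE-SOX3, against 4.67, 3.65 and 3.02 FPKM in OE-NC (log2 fold change 1.33, SE 0.12, limma adjusted p = 8.06e-05). RAB31, which carries cargo from the trans-Golgi network to endosomes, was the most abundant endosomal RAB in OE-SOX3, at 104, 103 and 98.8 FPKM, against 68.0, 58.3 and 59.0 FPKM in OE-NC. It rose by 0.72 on the log2 scale (SE 0.08, limma adjusted p = 0.000154). Neither gene overlapped between the groups. RAB15, which controls exit from the recycling endosome, fell to 1.25, 1.23 and 0.938 FPKM in OE-SOX3, against 3.15, 2.95 and 3.81 FPKM in OE-NC (log2 fold change -1.01, SE 0.10, limma adjusted p = 9.27e-05). RAB35, a RAB of fast recycling and of the last step of cytokinesis, measured 21.4, 18.7 and 18.8 FPKM in OE-SOX3, against 38.9, 34.5 and 32.9 FPKM in OE-NC (log2 fold change -0.82, SE 0.09, limma adjusted p = 0.000149). Those 4 genes lie on chromosomes 13, 18, 14 and 12 in the order named.

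The early endosome RAB5 genes split. RAB5A, which drives fusion of incoming vesicles, had 36.6, 37.7 and 35.2 FPKM in OE-SOX3, against 25.1, 23.5 and 24.3 FPKM in OE-NC (log2 fold change 0.57, SE 0.06, limma adjusted p = 0.000147). RAB5C, the most abundant of the 3, had 67.9, 65.5 and 68.8 FPKM in OE-SOX3, against 80.5, 97.9 and 95.2 FPKM in OE-NC. It fell by 0.42 on the log2 scale (limma adjusted p = 0.00353), but did not pass at equal sums (0.0629), under quantile normalization (0.14) or with length trends removed (0.122). Of its exon bases, 30.4% lie inside other genes, 28.8% in the same-strand gene AC099811.2. RAB5B had 12.5, 15.04 and 14.5 FPKM in OE-SOX3, against 5.43, 11.9 and 11.9 FPKM in OE-NC, where OE-NC 1 sat far below the other libraries. Its log2 fold change of 0.55 (SE 0.26) did not pass (limma adjusted p = 0.102). Without OE-NC 1 the value was 0.21 and passed (adjusted p = 0.0169), and with the replicate number as a block it also passed (adjusted p = 0.0172).

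Of the RAB4 and RAB11 genes of recycling endosomes, RAB4B, RAB4A and RAB11A rose and RAB11B fell. RAB4B, of the fast recycling pathway, rose by 0.61 on the log2 scale to 16.8 ± 2.03 FPKM in OE-SOX3, against 10.7 ± 2.27 FPKM in OE-NC (SD, n = 3 each, limma adjusted p = 0.00756), and shares 27.4% of its exon bases with the read-through gene RAB4B-EGLN2. RAB4A rose by 0.16 (limma adjusted p = 0.0482), a call that was lost with the replicate block (0.0862) and without any library other than OE-NC 1 (0.0922 to 0.16). RAB11A, of the slow recycling endosome, rose by 0.28 to 36.95 FPKM in OE-SOX3, against 30.2 FPKM in OE-NC (limma adjusted p = 0.00669). RAB11B fell by 0.21 to 46.2 FPKM in OE-SOX3, against 53.8 FPKM in OE-NC (limma adjusted p = 0.0475). The RAB11B call was lost without OE-SOX3 1, 2 or 3 or OE-NC 2 (0.0731 to 0.144) and at equal sums (0.298), the value without OE-NC 1 was -0.14, and its sign turned under quantile normalization (0.04) and with length trends removed (0.02). RAB14, which shuttles between Golgi and endosomes, rose by 0.19, with 30.2, 29.8 and 30.1 FPKM in OE-SOX3, against 26.1, 26.4 and 26.1 FPKM in OE-NC (limma adjusted p = 0.0153; 0.0517 to 0.0624 without OE-SOX3 1, 2 or 3 or OE-NC 3). RAB22A, of early endosomes, fell by 0.26 (limma adjusted p = 0.00615; 0.084 at equal sums). RAB21, which binds integrins on endosomes, averaged 4.29 FPKM in OE-SOX3 and 3.77 FPKM in OE-NC and did not pass (limma adjusted p = 0.145; 0.0197 without OE-NC 1).

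Late endosomes and lysosomes are marked by RAB7A, the most abundant RAB of the table, with 124, 126 and 127 FPKM in OE-SOX3, against 140, 148 and 149 FPKM in OE-NC. RAB7A fell by 0.21 on the log2 scale (SE 0.06, limma adjusted p = 0.0167). The value was -0.06 at equal sums (adjusted p = 0.502), -0.01 under quantile normalization (0.921) and -0.02 with length trends removed (0.855). Without OE-SOX3 1, 2 or 3 or OE-NC 2 or 3 it stayed between -0.22 and -0.19, but did not pass (0.055 to 0.0736). The fall of RAB32 was larger. This RAB of melanosomes and other lysosome-related organelles, which also anchors protein kinase A at mitochondria, had 35.8, 34.5 and 34.6 FPKM in OE-SOX3, against 95.4, 61.6 and 64.2 FPKM in OE-NC. It fell by 1.03 on the log2 scale (SE 0.16, limma adjusted p = 0.000957), and by 0.83 without OE-NC 1, the highest library. RAB32 lies on chromosome 6 (146543693 to 146554965, plus strand, GRCh38). RAB24, an atypical RAB of autophagy, rose by 0.54, with 18.9, 17.6 and 17.7 FPKM in OE-SOX3, against 14.4, 10.7 and 11.5 FPKM in OE-NC (limma adjusted p = 0.00344). Of the exon bases of RAB24, 44.8% lie inside exons of its neighbour MXD3, so the reads of these genes may be mixed.

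RAB12, which sends transferrin receptor to lysosomes, rose by 0.49, with 25.2, 23.3 and 23.1 FPKM in OE-SOX3, against 21.8, 14.6 and 14.6 FPKM in OE-NC (limma adjusted p = 0.022). The call was lost without OE-SOX3 1, 2 or 3 or OE-NC 2 or 3 (0.0552 to 0.0741), and without OE-NC 1 the value was 0.67 (adjusted p = 6.91e-07). RAB29, a RAB of the trans-Golgi network and stressed lysosomes, rose by 0.27 to 14.5 FPKM in OE-SOX3, against 11.8 FPKM in OE-NC (limma adjusted p = 0.011; 0.0514 without OE-SOX3 2). RAB9A, which returns mannose 6-phosphate receptors to the Golgi, averaged 12.3 ± 0.963 FPKM in OE-SOX3 and 10.6 ± 2.13 FPKM in OE-NC (SD, n = 3 each) and did not pass (limma adjusted p = 0.204). Without OE-NC 1 it was called higher (log2 fold change 0.35, adjusted p = 0.000595). Called lysosomal RABs numbered 5, and 2 without OE-SOX3 2, 3 without OE-SOX3 1, OE-SOX3 3, OE-NC 2 or OE-NC 3, and 6 without OE-NC 1.

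Outside the 3 classes, 3 of 6 tested members rose, 1 fell and 2 did not pass. RAB34, which acts in ciliogenesis and in lysosome positioning, was the most abundant of them, with 85.45, 84.15 and 85.45 FPKM in OE-SOX3, against 151, 113 and 115 FPKM in OE-NC (log2 fold change -0.55, SE 0.11, limma adjusted p = 0.00391). RAB42 (1.504 FPKM in OE-SOX3 and 0.970 FPKM in OE-NC) rose by 0.34 and RAB40B (1.28 FPKM in OE-SOX3 and 0.869 FPKM in OE-NC) by 0.29, with limma adjusted p of 0.00888 and 0.007. Under quantile normalization neither passed (0.157 for RAB42 and 0.256 for RAB40B). RAB40C, which like RAB40B carries a SOCS box and works with ubiquitin ligases, rose by 0.29 to 5.90 FPKM in OE-SOX3, against 4.68 FPKM in OE-NC (limma adjusted p = 0.0447). Without OE-SOX3 1, 2 or 3 the RAB40C call was lost (0.09 to 0.135), and without OE-NC 1 the value was 0.17. RAB23, a regulator of Hedgehog signalling at the cilium, and RAB28, another ciliary RAB, did not pass (limma adjusted p = 0.153 and 0.0606). Without OE-NC 1 both were called higher (RAB23 by 0.14, adjusted p = 0.0293; RAB28 by 0.40, adjusted p = 0.000164), and RAB28 also with the replicate block (adjusted p = 0.049). More than 50% of the exon bases of RAB23, 57.7%, lie inside the opposite-strand gene BAG2.

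Genes that share a RAB number encode close relatives, and the ratio of their FPKM within a library is free of the scaling of that library. For 14 pairs of tested genes the ratio was compared by a two-sided exact permutation test over the 6 libraries, which cannot go below p = 0.1 with 3 libraries against 3. No pair could therefore pass, and the smallest adjusted value was 0.127. RAB8A exceeded RAB8B by 3.03, 2.66 and 3.34 times in OE-SOX3, against 10.8, 9.82 and 9.14 times in OE-NC (exact permutation p = 0.1). For RAB27A over RAB27B the ratio was 2.02, 2.12 and 2.34 in OE-SOX3, against 5.25, 4.97 and 4.10 in OE-NC. RAB6A over RAB6B stood at 5.98, 5.78 and 5.77 in OE-SOX3, against 14.7, 11 and 10.9 in OE-NC. In each of these pairs the minor gene in OE-NC came closer to the major gene in OE-SOX3, with no overlap between the groups. That minor gene was also the longer one (8532 against 2567 bases for RAB8B, 10160 against 3913 for RAB27B, 5692 against 3480 for RAB6B). The longer gene also gained on its partner in RAB1A with RAB1B, RAB11A with RAB11B, RAB5A with RAB5C and RAB5B with RAB5C, again without overlap. In the pairs of RAB3 genes and in RAB4A with RAB4B the shorter gene gained instead. Across tested genes log2 fold change rose with length (Spearman correlation 0.239, and 0.16 without OE-NC 1). A ratio does not remove such a trend, and its part in these ratios was not tested.

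RAB1A exceeded RAB1B in every OE-SOX3 library and lay below it in every OE-NC library. RAB1A over RAB1B was 1.07, 1.08 and 1.01 in OE-SOX3, against 0.647, 0.608 and 0.567 in OE-NC. RAB3A over RAB3B was 1.08, 0.80 and 1.03 in OE-SOX3, against 0.0754, 0.0633 and 0.0891 in OE-NC, a difference of 3.68 on the log2 scale. RAB3A and RAB3D changed order in the same way. RAB3A over RAB3D was 1.30, 1.12 and 1.44 in OE-SOX3, against 0.286, 0.328 and 0.534 in OE-NC. The 3 expressed RAB3 genes thus lay near the same level in OE-SOX3, at 4.03 FPKM for RAB3A, 4.18 FPKM for RAB3B and 3.15 FPKM for RAB3D, while RAB3B led in OE-NC, at 5.71 FPKM. RAB5A over RAB5C was 0.538, 0.575 and 0.511 in OE-SOX3, against 0.312, 0.240 and 0.255 in OE-NC, without a change of order. The ratios RAB2A over RAB2B, RAB5A over RAB5B and RAB40B over RAB40C overlapped between the groups (exact permutation p = 0.3, 1 and 0.6).

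**Figure D4:**
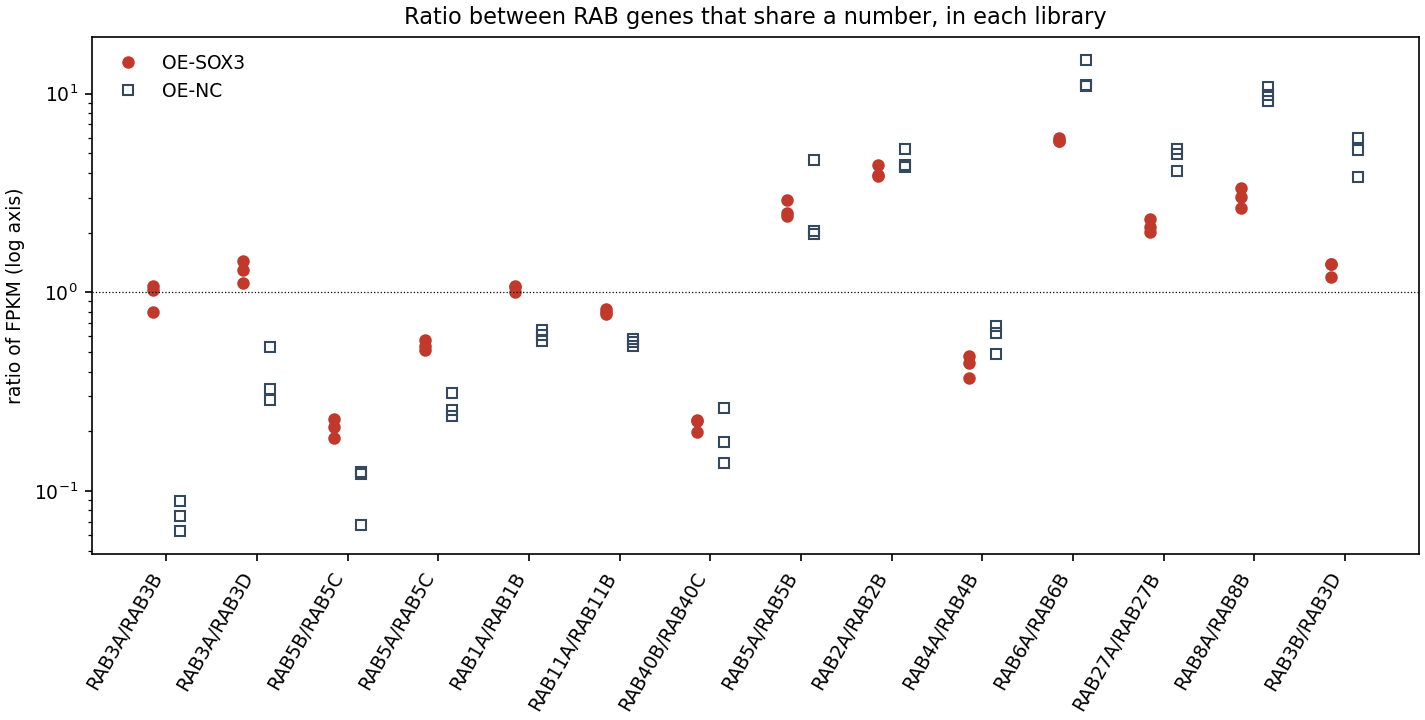
Ratio of FPKM between tested RAB genes that share a number, on a log axis, in each OE-SOX3 library (filled circles) and OE-NC library (open squares); the dotted line marks equal levels. The RAB3A/RAB3B ratio shows the widest gap, and the RAB1A/RAB1B ratio lies just above 1 in OE-SOX3 and between 0.567 and 0.647 in OE-NC.

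The remaining 15 members stayed under a mean of 1 FPKM in both groups and were not tested. Just inside that limit stood RAB40B and RAB42, and just outside it RAB33A (0.817 FPKM in OE-SOX3 and 0.594 FPKM in OE-NC) and RAB26 (0.717 FPKM in OE-SOX3 and 0.334 FPKM in OE-NC). Ratios of recovered reads per unit depth are given for these members with 95% exact binomial intervals, which cover counting error only. RAB26, a RAB of secretory granules, had 127 reads in OE-SOX3 and 61 in OE-NC (ratio 2.14, interval 1.57 to 2.96). RAB43, a Golgi RAB, had 110 reads in OE-SOX3 and 43 in OE-NC (ratio 2.63, interval 1.84 to 3.84), but 79.3% of its exon bases lie inside the read-through gene ISY1-RAB43. RAB17, a RAB of epithelial transcytosis, had 23 reads in OE-SOX3 and 3 in OE-NC (ratio 7.9, interval 2.39 to 41.1). RAB39B had 29 reads in OE-SOX3 and 12 in OE-NC (ratio 2.49, interval 1.23 to 5.36). Lower ratios were found for RAB38, the close relative of RAB32, with 128 reads in OE-SOX3 and 173 in OE-NC (ratio 0.762, interval 0.602 to 0.963), and for RAB7B, with 5 reads in OE-SOX3 and 24 in OE-NC (ratio 0.215, interval 0.0639 to 0.574). RAB38 overlapped between the groups, at 0.670, 0.451 and 0.506 FPKM in OE-SOX3, against 0.896, 0.626 and 0.623 FPKM in OE-NC. Of its 173 OE-NC reads, 71 came from OE-NC 1. The intervals of the other 9 (RAB9B, RAB36, RAB40A, RAB44, RAB33A, RAB37, RAB41, RAB6C and RAB6D) held 1, so a difference was not detectable at this depth. RAB41 had 0 reads in OE-SOX3 and 1 in OE-NC, and RAB6C and RAB6D are near-identical in sequence to RAB6A, so their reads are uncertain.

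The genes that load, switch and read RABs were taken from 4 lists with 105 tested genes in all. Of these 44 rose, 18 fell and 43 did not pass, so 59% were called (all tested genes 69.1%), with a median log2 fold change of 0.16. Without OE-NC 1 the same lists gave 47 higher and 33 lower with a median of 0.06 (all tested genes 4274 higher and 4802 lower). With length trends removed they gave 38 higher and 27 lower with a median of 0.08 (all tested genes 3922 higher and 3956 lower). Of 7 tested genes for RAB escort, prenylation and recycling, 1 rose and 2 fell. RABIF, a chaperone of nucleotide-free RABs, had 2.27, 1.73 and 1.99 FPKM in OE-SOX3, against 4.84, 5.69 and 5.32 FPKM in OE-NC (log2 fold change -1.07, limma adjusted p = 4.64e-05). RABGGTA, a subunit of the enzyme that attaches geranylgeranyl lipids to RABs, fell by 0.47 (limma adjusted p = 0.00104), and RABAC1, which takes part in releasing RABs from their inhibitor, rose by 0.55 (limma adjusted p = 0.00137). GDI2, a GDP dissociation inhibitor, had 75.9, 72.0 and 70.5 FPKM in OE-SOX3, against 83.2, 78.4 and 75.5 FPKM in OE-NC, and did not pass (limma adjusted p = 0.152).

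Among 33 tested exchange factors, 15 rose and 8 fell, with a median of 0.04, so 69.7% were called (all tested genes 69.1%). This list includes RAB3GAP1 and RAB3GAP2, whose symbols name them as GAPs of RAB3. RAB3GAP2 is among those that rose (log2 fold change 0.44, limma adjusted p = 0.00867), and RAB3GAP1 did not pass. Exchange activity was not checked for each gene. DENND3, an exchange factor for RAB12, had 3.26, 2.98 and 3.41 FPKM in OE-SOX3, against 0.786, 1.02 and 1.06 FPKM in OE-NC (log2 fold change 1.11, limma adjusted p = 2.08e-05). DENND4C, which activates RAB10, had 12.2, 12.9 and 12.2 FPKM in OE-SOX3, against 3.33, 5.28 and 5.18 FPKM in OE-NC (log2 fold change 1.28, limma adjusted p = 0.000192). MON1A, part of the complex that activates RAB7, fell by 1.01 on the log2 scale (limma adjusted p = 4.67e-05) and RIN2, an exchange factor for RAB5, fell by 0.60 (limma adjusted p = 0.000367). Of 30 tested GAPs, 14 rose and 2 fell, with a median of 0.26. This split was not taken without OE-NC 1, where lower calls over the 4 lists together went from 18 to 33. Called GAPs were 53.3% of those tested (all tested genes 69.1%), and higher GAPs 46.7% (all tested genes 32.9%). GAP activity was not checked for each gene of this list. The 4 listed genes with the smallest adjusted p were EVI5 (log2 fold change 0.74), TBC1D10A (0.60), TBC1D23 (0.79) and TBC1D8 (1.13), with limma adjusted p from 3.78e-05 to 9.21e-05. TBC1D10A, a GAP reported for RAB27A and RAB35, had 25.8, 25.9 and 25.8 FPKM in OE-SOX3, against 16.6, 16.8 and 16.9 FPKM in OE-NC.

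Among 35 tested effectors, 14 rose and 6 fell, with a median of 0.15, so 57.1% were called (all tested genes 69.1%). The golgins GCC2 and GOLGA2 rose. GCC2, a tether at the trans-Golgi network, had 11.2, 11.1 and 10.5 FPKM in OE-SOX3, against 5.57, 5.54 and 5.56 FPKM in OE-NC (log2 fold change 0.87, limma adjusted p = 1.8e-05). GOLGA2 encodes GM130, a cis-Golgi effector of RAB1, and had 41.3, 37.6 and 37.6 FPKM in OE-SOX3, against 21.3, 18.3 and 18.6 FPKM in OE-NC (log2 fold change 0.97, limma adjusted p = 4.59e-05). MICALL1, an effector of RAB8 and RAB35 on recycling endosomes, fell to 6.32, 5.97 and 5.94 FPKM in OE-SOX3, against 14.6, 17.0 and 16.4 FPKM in OE-NC (log2 fold change -1.26, limma adjusted p = 1.1e-05). RABEP2, an effector of RAB5 and RAB4, fell to 2.28, 1.65 and 1.95 FPKM in OE-SOX3, against 5.90, 5.78 and 5.42 FPKM in OE-NC (log2 fold change -1.18, limma adjusted p = 2.91e-05).

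**Figure D5:**
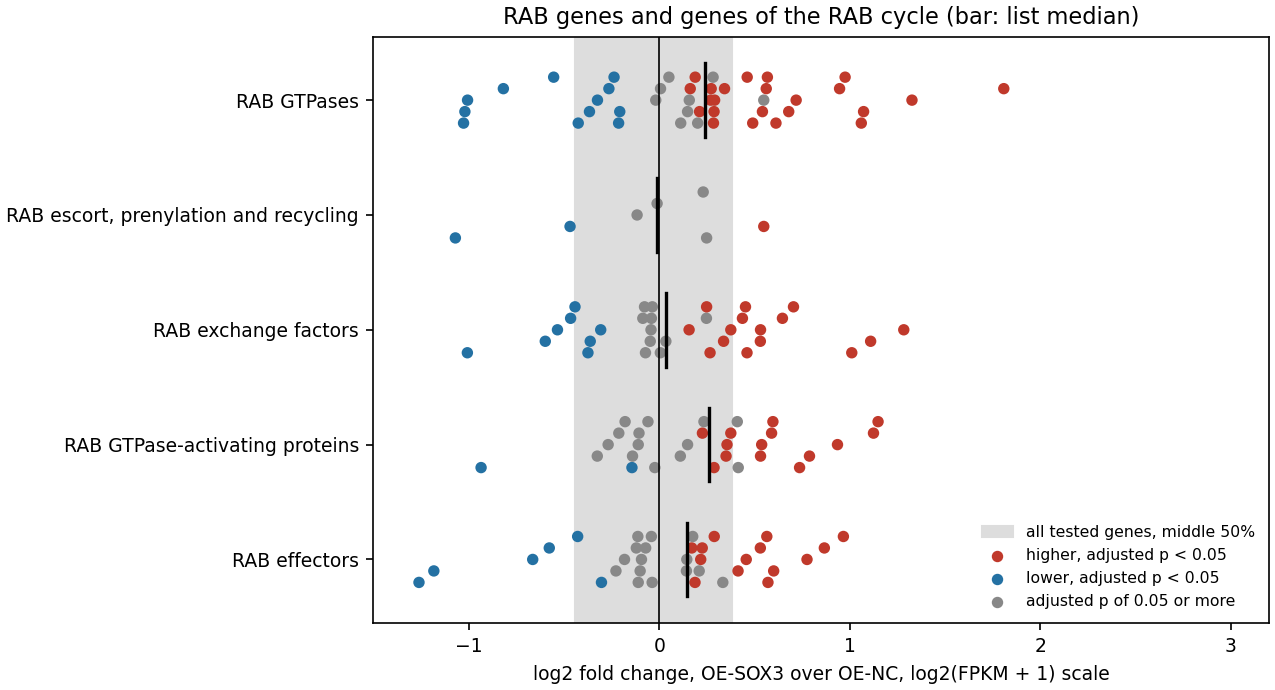
Log2 fold changes, OE-SOX3 over OE-NC on the log2(FPKM + 1) scale, of tested RAB genes and of the 4 lists of genes that act on RABs; each point is a gene, black bars are list medians and the grey band is the middle 50% of all tested genes. The list medians run from -0.01 for escort, prenylation and recycling to 0.26 for GAPs, beside 0.24 for the RAB genes.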

How the data were processed

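The authors deposited 1 expression value per gene and library, with no unit named. FPKM was inferred because every gene above 0 (16278 genes) had deposited values that are whole multiples of a step set by gene length and library total (within 0.02 reads). HISAT2, HTSeq, RSEM and hg38 appear, per the submitters' processing notes, with neither version nor role. The sources used here state no strand setting, annotation or read layout. Reads recovered from the steps served for depth, counting intervals and an alternative test. The main test was limma-trend on log2(FPKM + 1), with a pseudocount of 1 that understates changes of low genes, for genes that averaged 1 FPKM or more in OE-SOX3 or OE-NC (limma 3.58.1, R 4.3.3, Python 3.11.15). It was also run on simulated reads. Those had few changed genes, an equal spread in all libraries and neither a length trend nor a library like OE-NC 1. That run therefore does not show how the test performs on these data. Same-numbered libraries deviated together (correlations of deviations 0.486, 0.243 and 0.25), so the replicate block was run as an alternative; OE-SOX3 2 correlated higher with OE-NC 3 (0.282). Positions come from GENCODE 29 (GRCh38). Members, compartment lists and tests were chosen with earlier results of these data known. Named were called members with the smallest adjusted p per class and direction, those changed at least 2-fold, the most abundant per class, those next to the filter, and up to 4 called genes of each other list. Other members are given more briefly. Alternatives were another pseudocount, other filters, equal sums, quantile normalization, removal of length trends, limma-voom on recovered reads and leaving out each library.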

Additional observations from a re-analysis of the deposited data

How the results depend on the processing

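Of 35 called members, 19 were called in every alternative that tested them, among 14 run: RAB3A, RAB6B, RAB30, RAB27B, RAB3D, RAB33B, RAB8B, RAB1A, RAB8A, RAB20, RAB31, RAB4B, RAB5A, RAB11A, RAB35, RAB15, RAB24, RAB32 and RAB34. The number of called members was 25 to 42 when each library was left out in turn (35 with all), that of secretory RABs 10 to 16 (14), of endosomal RABs 9 to 14 (12), of lysosomal RABs 2 to 6 (5), of RAB cycle genes 48 to 80 (62) and of all tested genes 6557 to 9076 (7686). Called members whose sign turned were RAB10 (0.02 under quantile normalization) and RAB11B (0.04 under quantile normalization and 0.02 with length trends removed). For these and for the calls lost at another scaling, the cause was not tested. Relative to the median of all tested genes, the member median lay between 0.15 and 0.31 over the alternatives. With the replicate block 36 members were called (all tested genes 8031). In that run RAB4A lost its call (adjusted p = 0.0862), RAB5B (0.0172) and RAB28 (0.049) gained one, and no other member changed. Under limma-voom on recovered reads 33 members were called (all tested genes 7670), and with a pseudocount of 0.1 the log2 fold change of RAB3A was 2.97. Without the filter on low values, 37 of 59 members were called, beside 8933 of all 16278 genes.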
